A study of Mus musculus with 12 samples.

Results

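The 3 arrays from livers taken 3 h after concanavalin A (ConA) were compared with the 3 arrays from livers taken 1 h after it, across 18193 genes. These 6 arrays were chosen by their time labels from the 12 arrays of a time series of ConA hepatitis, a model of fulminant immune liver injury. Whole livers came from male Balb/c mice of 8 to 10 weeks, and ConA was given at 20 mg/kg into the tail vein. The groups compared were ConA 3 h and ConA 1 h; ConA 6 h and control 0 h served beside them (3 arrays each). The 0 h livers carry the ConA agent label at time 0, and the methods of the study describe their controls as injected with saline buffer. No group had its own control at the same hour, so time after ConA and time of day cannot be told apart. The arrays were Affymetrix Mouse 430 2.0 chips, and the labels call the arrays of a group replicates and describe RNA taken from each mouse.

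ConA is a plant lectin that activates T cells, and in mouse liver the activated T and NKT cells release interferon-γ, TNF and other cytokines within hours. Immediate-early genes answer first and briefly, because they need no new protein and their messages are short-lived. Interferon-γ then acts through interferon regulatory factors on a second set of genes, which includes the guanylate-binding proteins, the immunity-related GTPases and the MHC class I machinery, while inflamed hepatocytes turn to acute-phase proteins and reduce many metabolic functions.

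At 3 h most of the interferon-induced genes measured were higher than at 1 h, and single genes of glucose output, bile acid synthesis and fasting metabolism were far lower, with G6pc and Cyp7a1 the largest falls of all. Values were linear signals as deposited, raised to a floor of 3.04 and taken to log2. Because the 3 h arrays were dimmer, every count was made as deposited and after quantile normalization, and a gene is described as higher or lower here only when it passed an adjusted p of 0.05 (limma, Benjamini-Hochberg over 18193 genes) in the same direction both ways. By this rule 561 genes were higher at 3 h (3.08% of all genes) and 979 were lower (5.38%). Of these, 558 and 979 had every 3 h array beyond every 1 h array both ways, against 928 and 2900 of all genes. After quantile normalization 453 of the 561 higher genes and 392 of the 979 lower ones differed by at least 2-fold, with medians of 1.45 and -0.86 on the log2 scale, and 36 and 19 differed by at least 8-fold. The rule passes only rises that exceed the downward shift of the deposited values, and by quantile normalization alone 512 of 1005 higher genes and the same 392 lower ones differed by at least 2-fold. All counts in gene lists below stand beside the 3.08% higher and 5.38% lower of all genes.

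The split between rises and falls depended on the scaling. As deposited, 561 genes were higher (3.08%) and 3620 lower (19.9%), and after quantile normalization 1005 were higher (5.52%) and 979 lower (5.38%). Scaling to the 75th percentile gave 1140 higher and 900 lower, and equal array medians gave 1729 higher and 708 lower. The median log2 difference of all genes was -0.31 as deposited and -0.03 after quantile normalization. The array medians were 14.8, 14.5 and 13.7 at 3 h, against 18.9, 18.0 and 17.4 at 1 h, and 22.1% ± 1.00 of values lay at or under the floor at 3 h against 19.0% ± 0.200 at 1 h (SD, n = 3 each). The medians did not overlap (exact permutation test, two-sided, p = 0.1, the smallest that 3 against 3 allows). An RNA spike added before labelling, dap, was also lower, at 364 ± 17.2 at 3 h and 477 ± 72.2 at 1 h, while the spikes phe, lys and thr overlapped between the groups, with phe at 72.0 to 102 at 3 h and 86.9 to 104 at 1 h.

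**Figure D1:**
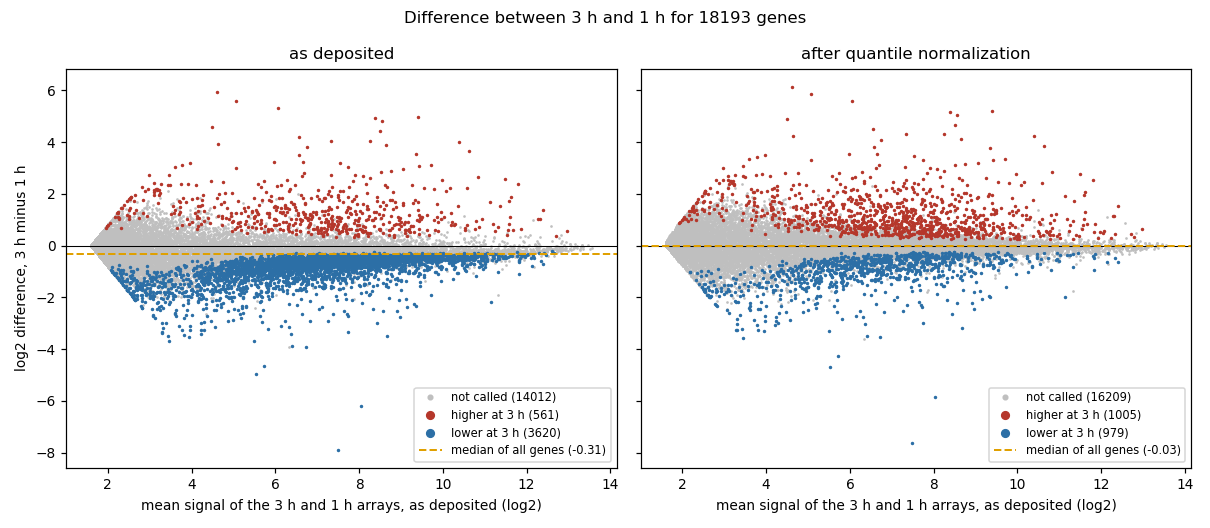
Log2 difference between 3 h and 1 h (vertical axis) against the mean log2 signal of the 6 arrays (horizontal axis) for 18193 genes, as deposited (left) and after quantile normalization (right); red genes were called higher and blue genes lower at 3 h, and the dashed line is the median of all genes. The cloud sits at -0.31 as deposited and at -0.03 after normalization, and the largest changes stand outside it in both panels.

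The arrays also differed in a hybridization control. The bioC control read 219, 539 and 542 at 3 h, against 239, 203 and 211 at 1 h, so that 3 h replicate 1 stood with the 1 h arrays and apart from the other 3 h arrays, and the 6 h arrays read as dim and the 0 h arrays as bright. The other hybridization controls followed in part. bioB read 193, 206 and 209 at 3 h, against 183, 172 and 192 at 1 h, whereas cre, at 6690, 5782 and 5911 at 3 h against 6950, 6367 and 6536 at 1 h, and bioD were lowest on 3 h replicates 2 and 3. With 3 h replicate 1 alone against the 1 h arrays, in a fit that takes the lone array to vary like the arrays of the other groups, 228 genes were higher and 321 lower both ways. The counts below for 3 h replicate 1 alone come from this fit, which has fewer 3 h arrays. The 3' to 5' ratio of Actb was 2.41 ± 0.0834 at 3 h and 2.26 ± 0.174 at 1 h, and that of Gapdh was 1.07 ± 0.122 and 0.924 ± 0.0523 (SD, n = 3 each; exact permutation p = 0.3 and 0.1). The part of any of these in the gene changes was not tested. The tissue label held: the 11 hepatocyte markers summed to 97380 to 101300 at 3 h and 103400 to 112700 at 1 h, and none was called.

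**Figure D2:**
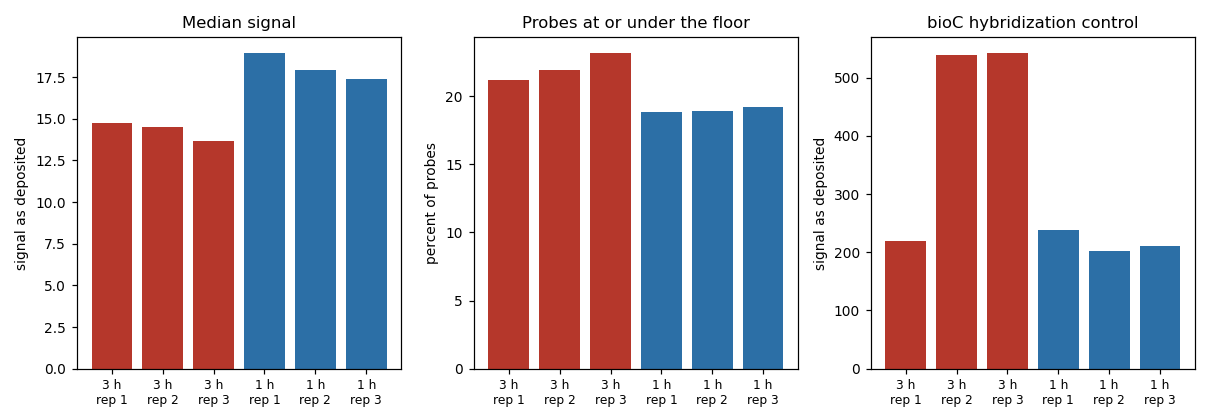
Median signal, percent of probes at or under the floor, and bioC hybridization control for the 3 h arrays (red) and the 1 h arrays (blue). All 3 h medians (13.7 to 14.8) lie under the 1 h medians (17.4 to 18.9), while bioC is bright only on 3 h replicates 2 and 3 (539 and 542).

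The promoters of the called genes were read for motifs, with no test. The core of the interferon-stimulated response element, GAAANNGAAA on either strand, was found in 54 of 453 higher genes with a promoter in the RefSeq table (11.9%), in 11 of 791 lower genes (1.39%) and in 524 of 14452 genes tested (3.63%), beside 3.44% of all 32851 promoters of the table. The usual NF-kB consensus was found in 17.4% of higher genes, 14.2% of lower genes and 11.7% of genes tested (8.46% of all promoters), and the cyclic AMP response element TGACGTCA in 1.55%, 3.41% and 2.92% (1.79%). Each promoter ran from 250 bases before to 50 after the annotated start, and a match describes the letters only. The sets differed in base content: the median share of G and C was 58.0% in higher genes, 61.7% in lower genes and 58.7% in genes tested. In all promoters of the table it was 52.7%. The part of base content in the motif shares was not tested.

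Promoters were counted for 13 of the 15 genes with the largest rises, and 5 of these genes held the interferon element core. Of the 15 genes with the largest falls, 9 were counted and none held it. Genes left out of these counts are not thereby absent from the table. The 5 promoters shown, 5′ to 3′ on the gene's own strand (RefSeq, GRCm38.p6), were picked because they hold the core. Those of Olr1, Acod1 and Ubd, which head the list of rises, did not hold it and are not shown. Capitals mark the interferon element core and, in Gbp2, also an NF-kB match that lies after the start; in Socs1 a pair of cores overlap. The windows are Gbp2b chr3:142594597-142594896 (+), Gbp2 chr3:142620413-142620712 (+), Ifit1 chr19:34640639-34640938 (+), Socs1 chr16:10785487-10785786 (-) and Calhm6 chr10:34127923-34128222 (-).
Gbp2b: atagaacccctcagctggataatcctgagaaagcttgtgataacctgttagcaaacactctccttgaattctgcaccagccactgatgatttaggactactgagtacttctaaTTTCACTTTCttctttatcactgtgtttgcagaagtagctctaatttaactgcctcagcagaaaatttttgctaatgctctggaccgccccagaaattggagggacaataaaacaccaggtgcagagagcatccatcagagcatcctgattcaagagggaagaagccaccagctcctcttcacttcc
Gbp2: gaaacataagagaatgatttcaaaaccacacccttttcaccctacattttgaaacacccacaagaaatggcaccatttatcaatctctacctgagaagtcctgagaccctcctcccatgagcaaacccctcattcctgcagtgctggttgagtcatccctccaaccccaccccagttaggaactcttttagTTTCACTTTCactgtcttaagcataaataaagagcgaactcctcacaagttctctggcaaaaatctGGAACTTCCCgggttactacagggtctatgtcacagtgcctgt
Ifit1: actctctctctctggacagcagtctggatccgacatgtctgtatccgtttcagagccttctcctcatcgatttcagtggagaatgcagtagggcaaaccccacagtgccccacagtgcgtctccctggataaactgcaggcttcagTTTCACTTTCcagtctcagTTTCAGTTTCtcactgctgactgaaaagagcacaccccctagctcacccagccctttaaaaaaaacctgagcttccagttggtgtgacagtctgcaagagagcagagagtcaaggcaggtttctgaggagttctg
Socs1: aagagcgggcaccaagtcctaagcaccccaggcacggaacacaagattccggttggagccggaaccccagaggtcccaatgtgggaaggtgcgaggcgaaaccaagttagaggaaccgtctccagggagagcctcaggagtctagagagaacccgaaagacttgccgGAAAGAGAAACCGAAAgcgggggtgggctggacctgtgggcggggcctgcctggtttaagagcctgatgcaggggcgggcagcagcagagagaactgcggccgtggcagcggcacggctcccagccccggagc
Calhm6: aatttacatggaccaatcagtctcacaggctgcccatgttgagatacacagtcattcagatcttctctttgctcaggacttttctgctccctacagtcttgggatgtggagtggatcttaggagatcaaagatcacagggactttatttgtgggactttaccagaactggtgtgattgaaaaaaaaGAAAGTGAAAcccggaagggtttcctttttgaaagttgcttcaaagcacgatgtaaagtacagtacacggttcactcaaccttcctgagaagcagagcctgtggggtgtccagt

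The largest fitted rise was that of Olr1, the lectin-like receptor for oxidized LDL of endothelium and macrophages. Its signal was 180, 182 and 216 at 3 h, against 3.04, 3.04 and 3.34 at 1 h, where both lowest values were at the floor. The fitted difference of 6.14 ± 0.12 on the log2 scale after quantile normalization (SE, n = 3 each; adjusted p = 2.2e-08) and its small error therefore rest on the floor, and the difference is a lower limit. Acod1, which makes itaconate in activated macrophages, read 204, 226 and 273 at 3 h and 11.1, 3.40 and 3.04 at 1 h. Ubd, the ubiquitin-like modifier FAT10, read 401, 339 and 551 at 3 h, against 7.27, 17.9 and 8.78 at 1 h. Both were thus near the floor at 1 h, and their log2 differences were 5.85 ± 0.43 for Acod1 and 5.61 ± 0.38 for Ubd, with no overlap between the groups.

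The guanylate-binding proteins are GTPases that attack intracellular microbes, and 3 of them were among the 15 largest rises. Gbp2b reached 3763, 3402 and 4208 at 3 h, against 138, 141 and 88.6 at 1 h, a log2 difference of 5.20 ± 0.21 (adjusted p = 2.3e-06). Gbp2, whose promoter is shown above, read 1359, 1239 and 1134 at 3 h and 85.2, 88.7 and 55.9 at 1 h (4.30 ± 0.21). Gbp6 read 5588, 5879 and 5347 at 3 h and 490, 599 and 300 at 1 h (3.85 ± 0.20). Ifi47, an immunity-related GTPase, read 4946, 5902 and 5295 at 3 h, against 374, 391 and 260 at 1 h (4.22 ± 0.16, adjusted p = 1.7e-06). In each of these genes 1 h replicate 3 was the lowest array, and the lowest 3 h value was far above the highest 1 h value.

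Of the 18 measured interferon regulatory factors and interferon-inducible GTPases, 14 were higher and none lower, with a median log2 difference of 2.67 after quantile normalization against -0.03 for all genes. The members not called were Irf2, Irf3, Irf5 and Irf9. Irf1, which transmits the interferon-γ signal, averaged 3690 at 3 h and 2449 at 1 h (0.80, adjusted p = 0.012). Of 32 antiviral interferon-stimulated genes, 22 were higher and none lower (median 1.97). Ifit2, which binds viral RNA, read 298, 522 and 428 at 3 h, against 29.9, 29.8 and 11.9 at 1 h (4.49 ± 0.35). Ifit1 read 1353, 2100 and 1252 at 3 h and 95.6, 133 and 90.1 at 1 h (4.12 ± 0.23), and Mx2 read 235, 447 and 283 at 3 h and 25.2, 62.6 and 22.5 at 1 h (3.53 ± 0.69, adjusted p = 0.012). With 3 h replicate 1 alone, 12 of the 18 and 14 of the 32 were called.

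The MHC class I list, which covers peptide loading and the immunoproteasome, held 10 higher and no lower genes of 14 measured (median 1.28). Tap1, the peptide transporter, read 681, 724 and 682 at 3 h, against 110, 126 and 88.1 at 1 h (2.97 ± 0.15), on 1 of 4 probes for the gene, of which 3 pointed the same way. Nlrc5, the transactivator of class I genes, read 406, 400 and 415 at 3 h and 101, 86.5 and 99.1 at 1 h (2.39 ± 0.17). B2m, the light chain of class I, differed by -0.06 and was not called, and none of the 8 MHC class II genes was called both ways (median 0.55). With 3 h replicate 1 alone 6 of the 14 class I genes were called.

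The named genes with large rises included inhibitors of signalling. Socs1, an inhibitor of JAK kinases, read 357, 500 and 369 at 3 h, against 29.8, 28.7 and 27.4 at 1 h (4.10 ± 0.43). Cd274, the PD-L1 ligand that restrains T cells, read 684, 671 and 607 at 3 h and 53.6, 41.1 and 29.1 at 1 h (4.31 ± 0.35). Irak3, which dampens Toll-like receptor signalling, read 81.4, 124 and 134 at 3 h, against 7.65, 3.04 and 4.14 at 1 h (4.88 ± 0.46). In the list of SOCS proteins and cytokine receptor signalling, 7 of 24 genes were higher and none lower. Socs3, by contrast, averaged 1826 at 3 h and 2492 at 1 h and overlapped between the groups (adjusted p = 0.74) and its mean at 0 h was 59.1. Among the other large rises, Calhm6 read 1753, 1809 and 1956 at 3 h, against 77.8, 67.2 and 42.9 at 1 h, and Tifa, a TRAF-binding adaptor, 1277, 1926 and 1911 at 3 h, against 97.8, 86.4 and 56.8 at 1 h.

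**Figure D3:**
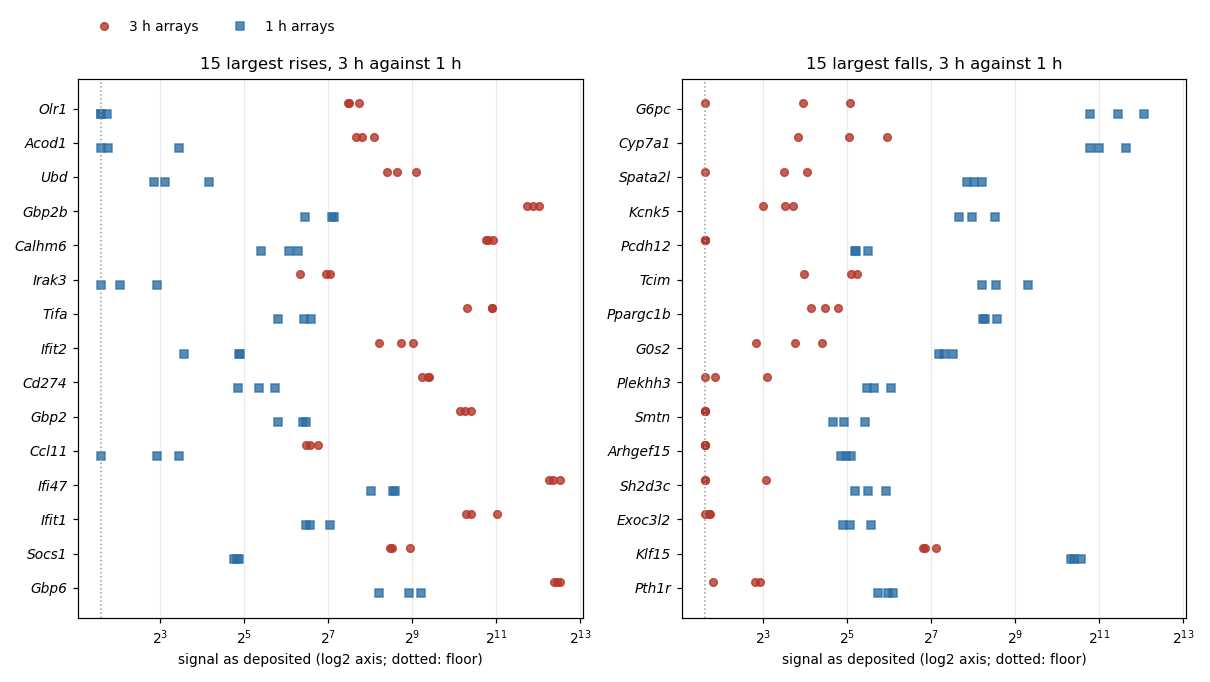
Signal as deposited (horizontal log2 axis) of the 15 genes with the largest rises (left) and the 15 with the largest falls (right) on each of the 3 h arrays (red circles) and 1 h arrays (blue squares); the dotted line is the floor of 3.04. In every gene shown the 3 h arrays and the 1 h arrays do not overlap, and Pcdh12, Smtn and Arhgef15 have all 3 h values at the floor.

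NF-kB genes moved in both directions. Of 15 subunits and feedback inhibitors, 9 were higher and 2 lower (median 1.35). Relb, a subunit of the non-canonical pathway, read 273, 290 and 254 at 3 h, against 62.2, 70.2 and 54.6 at 1 h (2.44 ± 0.15). Nfkbie, the inhibitor IκBε, read 682, 686 and 594 at 3 h and 153, 126 and 101 at 1 h (2.66 ± 0.13, adjusted p = 7e-06), and Bcl3, a nuclear IκB protein, rose by 1.84 ± 0.13. The lower members were Nfkbia and Nfkbiz. Nfkbia, the inhibitor IκBα, read 3841, 3201 and 3278 at 3 h, against 6317, 6128 and 5314 at 1 h (-0.65 ± 0.13), and Nfkbiz, a nuclear IκB protein, read 335, 231 and 292 at 3 h, against 994, 995 and 813 at 1 h (-1.41 ± 0.34). Leaving out any 1 of the 6 arrays of 3 h and 1 h left 1 of these 2 falls, while the 9 rises stayed 9 in number; with 3 h replicate 1 alone 5 rises and no fall were called. Tnfaip3, another feedback inhibitor, averaged 1325 at 3 h and 1205 at 1 h and was not called.

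Immediate-early genes, which lead the response to ConA, were not all lower by 3 h. Of 25 immediate-early transcription factors, 4 were lower (Ier2, Klf10, Ier5 and Junb) and 3 higher (Atf3, Klf6 and Klf2). Ier2 read 89.8, 101 and 127 at 3 h, against 414, 400 and 349 at 1 h (-1.54 ± 0.14, adjusted p = 0.00016), and Atf3, a stress-induced repressor, read 362, 479 and 498 at 3 h and 137, 168 and 87.8 at 1 h (2.10 ± 0.57, adjusted p = 0.046). Fos and Egr1 averaged 171.5 and 412 at 3 h, against 497 and 1204 at 1 h, but were not called both ways (adjusted p after normalization 0.18 and 0.071). The list of MAP kinase phosphatases and mRNA decay factors, which also holds Gadd45b and Spry4, had 5 lower and 2 higher of 19 genes. Dusp1, which switches off p38 and JNK, read 88.3, 58.5 and 110 at 3 h, against 711, 450 and 442 at 1 h (-2.30 ± 0.60). Gadd45b read 136, 178 and 106 at 3 h and 932, 834 and 536 at 1 h (-2.12 ± 0.36), with a mean of 11.5 at 0 h. The 3 rises were 1 without any single 1 h or 6 h array or without 3 h replicate 2 or 3, and the 5 falls were 2 or 3 without control 0 h replicate 2, any single 1 h array or 3 h replicate 2 or 3. On 3 h replicate 1 alone, 1 immediate-early gene and 2 of the phosphatase and decay list were lower and none of either was higher.

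Cytokines and chemokines moved in both directions. Of the cytokines 9.38% were higher and 9.38% lower, beside 3.08% and 5.38% of all genes. Ifng itself read 81.5, 68.5 and 117 at 3 h, against 27.7, 63.0 and 30.6 at 1 h (1.54 ± 0.39, adjusted p = 0.034), and averaged 3.55 at 0 h. Il6 read 14.8, 24.6 and 13 at 3 h, against 70.0, 62.4 and 47.2 at 1 h (-1.43 ± 0.36), and Il1a and Tnfsf9 were lower as well. Il2 and Ltb completed the 3 cytokines that were higher, of 32 measured; Tnf averaged 63.7 at 3 h and 60.4 at 1 h and was not called. These cytokine calls were fragile: without 1 h replicate 3 or without 3 h replicate 3 none of the 3 rises was called, 1 was without 1 h replicate 1, 3 h replicate 1 or 2, or 6 h replicate 2 or 3, and without 1 h replicate 3, 3 h replicate 1 or 3 h replicate 3 only 1 of the 3 falls was. No cytokine was called with 3 h replicate 1 alone.

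Among 12 chemokines that draw lymphocytes, 5 were higher and none lower (Cxcl11, Ccl17, Cxcl9, Cxcl10 and Ccl24). Cxcl11 read 2072, 2241 and 2335 at 3 h, against 214, 220 and 151 at 1 h (3.77 ± 0.15, adjusted p = 1.8e-06), and Cxcl9 read 8221, 7993 and 8203 at 3 h, against 2044, 2165 and 849 at 1 h (2.54 ± 0.35). Both bind CXCR3 on activated T cells. Of 13 chemokines that draw neutrophils and monocytes, Ccl8 and Ccl9 were higher and Cxcl2 lower. Cxcl2, a neutrophil attractant, read 133, 101 and 138 at 3 h, against 967, 1145 and 814 at 1 h (-2.65 ± 0.63, adjusted p = 0.027), and this call was lost without any 1 of the 6 arrays. Ccl11, the eosinophil attractant eotaxin, read 89.1, 95.8 and 109 at 3 h, against 3.04, 7.68 and 11 at 1 h (4.22 ± 0.36). The endothelial adhesion molecules Selp, Vcam1 and Icam1 and the receptor Cd44 were the 4 of 12 adhesion genes called, all higher; Vcam1 read 1127, 1175 and 1237 at 3 h, against 372, 376 and 313 at 1 h (2.01 ± 0.15). Of these, 1 of the 5 lymphocyte chemokines and all 4 adhesion genes were called with 3 h replicate 1 alone.

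**Figure D4:**
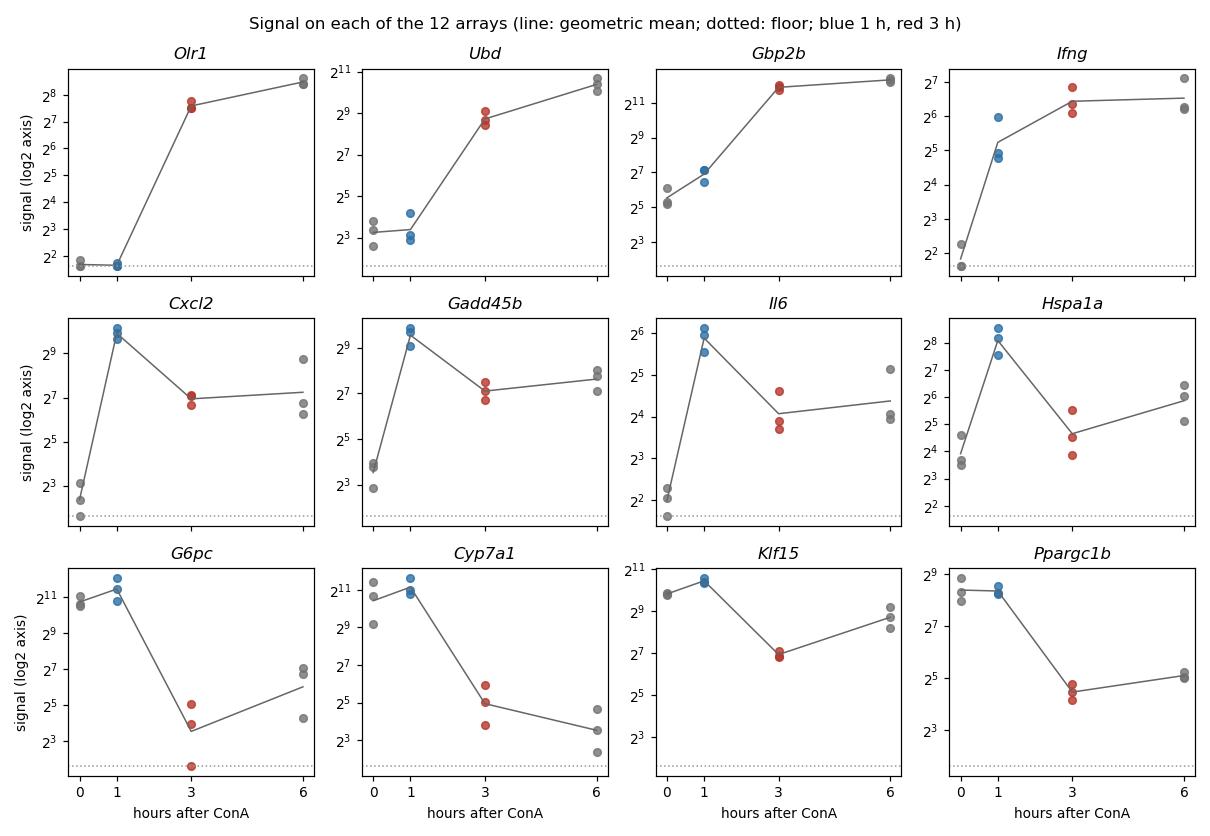
Signal on a log2 axis against hours after ConA for 12 genes on all 12 arrays, with the geometric mean as a line, the 1 h arrays in blue, the 3 h arrays in red and the floor dotted. The upper row shows genes that rose between 1 h and 3 h, the middle row genes highest at 1 h, such as Cxcl2 with 814 to 1145 at 1 h, and the lower row metabolic genes that were near or above their 0 h mean at 1 h and lower at 3 h.

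Among 26 acute-phase genes 10 were higher and none lower (median 0.46), and their cell of origin was not tested. Saa3 read 6754, 7291 and 6925 at 3 h, against 1165, 1196 and 1177 at 1 h (2.75 ± 0.31). Orm2, a plasma carrier, read 2726, 1838 and 2218 at 3 h and 648, 530 and 413 at 1 h (2.33 ± 0.15). Lcn2, which starves bacteria of iron, read 6123, 5986 and 5947 at 3 h, against 2434, 1396 and 1323 at 1 h (2.06 ± 0.16). Il1rn, the interleukin-1 receptor antagonist, read 515, 616 and 748 at 3 h, against 136, 112 and 52.5 at 1 h (3.01 ± 0.51). The fibrinogen chains Fga, Fgb and Fgg were not called, with differences of 0.08, 0.12 and 0.11. Of 9 negative acute-phase proteins only Igf1, the growth factor, was lower, at 3486, 3180 and 2775 at 3 h, against 4649, 4496 and 3941 at 1 h (-0.32 ± 0.09). No gene of that list was called without any 1 of 11 arrays, and 2 were without 3 h replicate 1.

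The largest fall was that of G6pc, the catalytic subunit of glucose-6-phosphatase, which releases glucose from the liver. Its signal was 33.7, 3.04 and 15.4 at 3 h, against 2804, 4243 and 1759 at 1 h, with 3 h replicate 2 at the floor. The log2 difference after quantile normalization was -7.62 ± 0.96 (adjusted p = 0.0011), and the mean at 0 h was 1676. Cyp7a1, the enzyme that sets the rate of bile acid synthesis, read 32.9, 14.2 and 61.8 at 3 h, against 2052, 3178 and 1756 at 1 h (-5.86 ± 0.73, adjusted p = 0.0011). Klf15, a factor that drives gluconeogenesis and amino acid breakdown in fasting, read 111, 116 and 138 at 3 h, against 1285, 1338 and 1520 at 1 h (-3.18 ± 0.23). The means at 0 h of Cyp7a1 and Klf15 were 1364 and 892, and all 1 h values of the 3 genes lay above their 0 h means.

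Further named genes with a role in fuel use came from several lists and were picked by the size of their falls. Ppargc1b and Ppargc1a, coactivators of mitochondrial and fasting genes, fell by 3.50 ± 0.23 and 2.10 ± 0.26 on the log2 scale. Ppargc1b read 27.5, 22.0 and 17.6 at 3 h, against 298, 309 and 377 at 1 h, and Ppargc1a read 51.5, 46.0 and 75.2 at 3 h, against 291, 305 and 336 at 1 h. Ppara, the fatty acid receptor, read 287, 258 and 337 at 3 h, against 1441, 1454 and 1477 at 1 h (-2.0 ± 0.18, adjusted p = 0.00015). Lpin1, which makes diacylglycerol and assists these factors, read 217, 172 and 194 at 3 h and 1308, 1146 and 1479 at 1 h (-2.44 ± 0.25). Irs1, an insulin receptor substrate, read 30.9, 66.2 and 33.4 at 3 h, against 348, 314 and 275 at 1 h (-2.55 ± 0.29). G0s2, an inhibitor of triglyceride lipase, read 13.4, 7.08 and 21.2 at 3 h, against 182, 145 and 158 at 1 h (-3.32 ± 0.87, adjusted p = 0.040).

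The metabolic lists were read against 5.38% lower and 3.08% higher of all genes. Of 23 genes of gluconeogenesis and glucose handling 4 were lower (G6pc, Irs1, Ppp1r3c and Pck1; 17.4%) and 1 higher, Pfkfb3, which favours glycolysis. Pck1, which starts gluconeogenesis from oxaloacetate, averaged 2478 at 3 h and 5277 at 1 h (-0.93, adjusted p = 0.0061). Of 29 genes of bile acid synthesis and transport 4 were lower (Cyp7a1, Abcc2, Hsd3b7 and Abcb4, 13.8%). Of 42 of amino acid breakdown and the urea cycle 4 were lower (Ass1, Nags, Amdhd1 and Hal, 9.52%). The call of Ass1 rested on its only probe in the annotation, with means of 15.5 at 3 h and 62.0 at 1 h. Its adjusted p after quantile normalization (limma) was 0.0495. Of 31 genes of lipid handling 3 were lower (Lpin1, Angptl4 and Lpin2, 9.68%), and of 27 of fatty acid oxidation 1, Acot12 (3.7%). Of 39 cytochrome P450 genes 1, Cyp4b1, was lower (2.56%), and of 32 phase II enzymes, 22 genes of cholesterol synthesis, 59 respiratory chain subunits and 39 ribosomal proteins none was called both ways. Most medians of these lists, from -0.32 for cholesterol synthesis to 0.01 for ribosomal proteins, stood near the -0.03 of all genes. The bile acid count was 1 without 1 h replicate 2 or 3 or 3 h replicate 3, 2 without 3 h replicate 1 or 2, and 7 without 6 h replicate 1. By 3 h replicate 1 alone, 2 glucose genes, 1 bile acid gene, 2 lipid genes and none of amino acid breakdown were lower. The calls of Pfkfb3 and Cyp4b1 were lost without any 1 of the 6 arrays of 3 h and 1 h, and that of Acot12 without any but 3 h replicate 3.

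Transcription regulators of the liver were also among the falls, to be read against 5.38% lower and 3.08% higher of all genes. Of 26 nuclear receptors 7 were lower (26.9%) and Nr5a2 alone was higher, and of 25 hepatocyte transcription factors 7 were lower (28.0%) and 2 higher. Nr0b2, the small heterodimer partner that represses bile acid synthesis, read 87.8, 72.9 and 45.1 at 3 h, against 631, 404 and 279 at 1 h (-2.28 ± 0.45). Foxo1, which insulin restrains, read 114, 70.8 and 88.8 at 3 h and 298, 327 and 413 at 1 h (-1.58 ± 0.25). Hnf4a, a core hepatocyte factor, differed by -0.29 and was not called. Of 18 clock and clock output genes 7 were lower (38.9%) and Nfil3 higher; Ciart read 3.73, 19.0 and 16.9 at 3 h, against 73.7, 41.5 and 174 at 1 h (-2.58 ± 0.71, adjusted p = 0.049). Without 1 h replicate 3 the clock falls numbered 3 and without 3 h replicate 2 they numbered 4, and without the same 3 h replicate 2 the hepatocyte factors numbered 4. With 3 h replicate 1 alone, 3 receptors, 2 hepatocyte factors and 2 clock genes were lower. The rise of Nr5a2 was lost without 1 h replicate 1 or 2 or any 3 h array, and that of Nfil3 without any 1 h array or 3 h replicate 1 or 3.

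Of 16 genes known to be induced by glucocorticoids 8 were lower and 1 was higher, Lcn2. Their median log2 difference of -0.83 was the lowest of the 52 lists. Tsc22d3, the leucine zipper GILZ, read 161, 163 and 152 at 3 h, against 862, 867 and 1006 at 1 h (-2.20 ± 0.20, adjusted p = 0.00015), and 3 of its 4 probes pointed the same way. Its mean was 460 at 0 h. Sgk1, a kinase, averaged 230 at 3 h, 684 at 1 h and 192 at 0 h, while Fkbp5 differed by -0.11 and was not called. The count of 8 was 4 or 5 without control 0 h replicate 1, without ConA 6 h replicate 3 or without any 1 of the 6 arrays of 3 h and 1 h, and 2 with 3 h replicate 1 alone. Of 17 heat shock genes 3 were lower, with Hspa1a at 23.4, 46.3 and 14.7 at 3 h, against 287, 187 and 376 at 1 h (-3.05 ± 0.55).

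In 3 of the 15 largest falls every 3 h array was at the floor. The folds given for these genes are bounds for the values as deposited only, where the 3 h arrays were dimmer. After quantile normalization the log2 differences were smaller, at -3.57 for Pcdh12, -3.27 for Smtn and -3.25 for Arhgef15. As deposited they were -3.69, -3.40 and -3.36. Pcdh12, an endothelial protocadherin, was at the floor on all 3 h arrays, against 45, 36.3 and 36.9 at 1 h, at least 12.9-fold lower on 1 of 3 probes, of which 2 pointed the same way. Smtn, a smooth muscle cytoskeletal protein, was at the floor on all 3 h arrays, against 43.0, 30.5 and 25.1 at 1 h, at least 10.5-fold lower. Arhgef15, an endothelial exchange factor, was likewise at the floor against 33.8, 28.9 and 31.2 at 1 h, at least 10.3-fold lower. All 3 Arhgef15 probes pointed the same way and 1 was called. Pdgfrb, the receptor of pericytes and stellate cells, read 14.7, 17.7 and 6.18 at 3 h, against 122, 86.9 and 60.5 at 1 h (-2.50 ± 0.43). Kdr, the VEGF receptor of endothelium, read 52.2, 51.5 and 46.4 at 3 h, against 181, 172 and 139 at 1 h (-1.34 ± 0.21).

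The cell type lists moved unevenly, and in bulk liver fewer cells of a type and less RNA per cell cannot be told apart. Of all genes 5.38% were lower and 3.08% higher. Of 18 sinusoidal endothelial markers 4 were lower (Kdr, Gpr182, Flt4 and Tek) and of 17 stellate cell markers 5 (Pdgfrb, Hand2, Lrat, Cygb and Colec11). Of 15 Kupffer cell markers 4 were lower (Slc40a1, Cd163, Vsig4 and Clec4f). None in these lists was higher both ways. By quantile normalization alone 1 endothelial marker was called higher, and the largest Kupffer cell difference was 1.51, not called. The stellate count was 3 without 1 h replicate 1 or 2 or 3 h replicate 2 or 3. As deposited, the summed level of the endothelial markers was 2212 to 2402 at 3 h, against 3370 to 3818 at 1 h. That of the Kupffer cell markers was 2715 to 3450 at 3 h, against 5182 to 5803 at 1 h. After quantile normalization the gaps were smaller, at 2504 to 2737 against 3131 to 3409 and at 3150 to 3892 against 4699 to 5262. The summed stellate cell markers were 3348 to 4068 at 3 h, against 4465 to 6318 at 1 h, as deposited. After quantile normalization they overlapped, at 3844 to 4563 against 4532 to 5906. At 0 h the endothelial sum as deposited, 1926 to 3934, spanned the ranges of both groups. Other defining markers were not called: Pecam1 differed by -0.13, Adgre1 by 0.07 and Des by 0.54. Of 13 neutrophil markers 5 were higher (Lcn2, Ngp, Mmp8, S100a9 and S100a8). Their sum was 7703 to 8183 at 3 h, against 2247 to 3697 at 1 h, and without Lcn2, which the acute-phase list also holds, 1580 to 2236 at 3 h, against 924 to 1263 at 1 h. The granule markers Mpo and Elane averaged 19.7 and 15.6 at 3 h and 23.9 and 14.6 at 1 h, with no call. The neutrophil count was 1 without 1 h replicate 3, 3 h replicate 2 or 3 h replicate 3, 2 without 1 h replicate 2 and 3 without 1 h replicate 1.

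Single lymphocyte markers were called: 7.69% of T cell, 8.33% of NK and cytotoxic and 11.1% of B cell markers, beside 3.08% higher of all genes. Of 13 T cell markers Cd2 alone was higher, Cd4 was at the floor on all 6 arrays, and the sum was 132 to 159 at 3 h, against 148 to 217 at 1 h. Of 12 markers of NK and cytotoxic cells Gzmb alone, the granule protease, was called: 40.4, 36.9 and 44.6 at 3 h, against 3.04, 10.8 and 3.04 at 1 h (3.41 ± 0.53, adjusted p = 0.0033). The sum of that list was 178 to 213 at 3 h, against 104 to 142 at 1 h. Of 9 B cell markers Ms4a1 alone was higher, at 26.8, 29.5 and 22.5 at 3 h, against 3.04, 12.1 and 10.8 at 1 h, a call lost without any single 3 h array, and the sum was 171 to 228 at 3 h, against 165 to 181 at 1 h. Of 11 monocyte markers 5 were higher (Chil3, Vcan, Cd14, F13a1 and Plac8; for Vcan 3 of 8 probes pointed upward and 1 was called), with a sum of 6042 to 6633 at 3 h, against 5019 to 6236 at 1 h. These sums are as deposited. After quantile normalization the T cell sum was 148.8 to 188 at 3 h, against 141.4 to 203.5 at 1 h. The NK and cytotoxic sum was then 217 to 253 against 94.0 to 137. The B cell sum was 197 to 269 against 143 to 178, without overlap. The monocyte sum was 6599 to 7049 against 5244 to 5555, also without overlap. The T cell call was lost without any 1 of 9 arrays, and the monocyte count was 3 without 3 h replicate 1 or 2. With 3 h replicate 1 alone, 1 endothelial, 2 Kupffer cell and no stellate marker were lower, and 1 neutrophil, 1 monocyte and no lymphocyte marker were higher. The part of any cell type in the gene changes above was not tested.

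**Figure D5:**
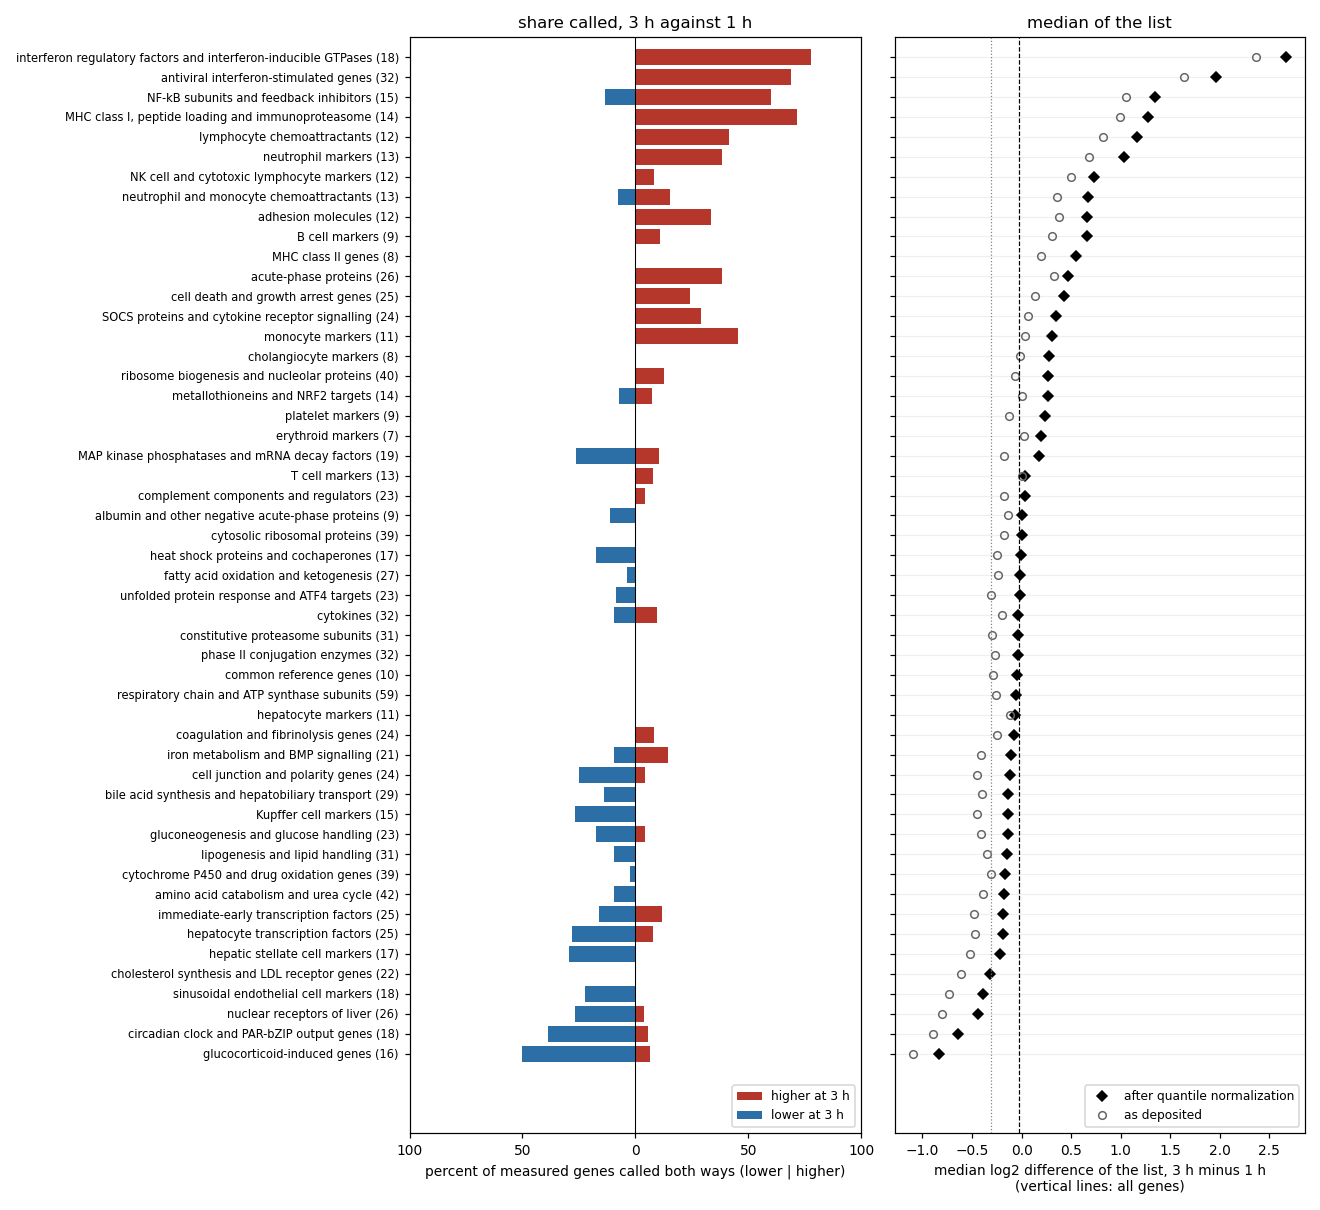
For each gene list (measured genes in parentheses), the percent called higher (red, right) or lower (blue, left) at 3 h both ways, and the median log2 difference between 3 h and 1 h after quantile normalization (diamonds) and as deposited (circles), with vertical lines at the median of all genes. The interferon lists lie farthest right, with the MHC class I list between them, at 77.8%, 71.4% and 68.8% higher, and the glucocorticoid-induced genes lie lowest, with 8 of 16 lower; the network genes of the study are not drawn.

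The changes between 1 h and 3 h were set against the difference between 6 h and 0 h, which uses none of the same arrays but shares the estimate of the spread. All 6 h arrays were dim and all 0 h arrays bright in bioC, so time and bioC set cannot be told apart in that difference. At 6 h against 0 h, 2512 genes were higher (13.8%) and 2302 lower (12.7%) both ways. Of the 561 genes higher at 3 h, 468 were also higher at 6 h than at 0 h, which is 83.4% of the first list and 18.6% of the second, and 4 were lower. Of the 979 genes lower at 3 h, 524 were also lower at 6 h than at 0 h, 53.5% of the first list and 22.8% of the second. Another 41 genes were lower at 3 h than at 1 h yet higher at 6 h than at 0 h (4.19% and 1.63%), among them Cxcl2, Gadd45b, Il6, Il1a, Nfkbiz, Nfkbia, Ier5, Junb, Zfp36 and Hspa1a. Hspa1a, an inducible chaperone, averaged 15.1 at 0 h, 272 at 1 h, 25.2 at 3 h and 58.5 at 6 h. The 4 genes higher at 3 h but lower at 6 h than at 0 h were Tbc1d2b, Shroom2, Zcchc2 and Olfr17, named after their values were seen; Zcchc2 averaged 195 at 0 h, 233 at 1 h, 484 at 3 h and 128 at 6 h.

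Of the 25 measured genes of the study's network, 18 were lower at 3 h and none higher (72.0%, median -0.68). The study chose these genes on these arrays, so their direction is no independent evidence. The study also measured its network genes by real-time RT-PCR relative to β-actin, with RNA from the same samples. There it reported Colec11 and Tert as higher at 3 h than at 1 h, opposite to the arrays, while its value for Gpd1l was lower. Colec11, a collectin made by stellate cells and hepatocytes, read 311, 308 and 264 at 3 h, against 782, 822 and 586 at 1 h (-0.99 ± 0.18). The network count was 7 without 1 h replicate 3, between 8 and 11 without 1 h replicate 1 or 2 or 3 h replicate 1 or 2, and 0 with 3 h replicate 1 alone.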

How the data were processed

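Whole liver RNA was hybridized to 12 arrays, 3 at each of 4 time points. The deposited table holds 1 signal intensity per probe and array on a linear scale, made by the authors. The submitters' processing notes name MAS5 5.0, whereas the methods of the study name robust multichip averaging, which gives log2 values with few near 0; the deposited intensities were linear and differed between arrays in their distribution. Scale factors and scan settings are not given in the sources used here.

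Of 45101 probes, 64 control probes were left out. Of the 45037 tested, 34945 had 1 gene symbol, 932 several and 9160 none in the platform annotation; 34741 symbols were updated through their Entrez identifiers and 204 kept their older form. For each of 18193 genes the probe with the highest mean over the 12 arrays was used. Other probes of a gene did not always follow. Among the named genes, for example, 1 of 4 was called as deposited for Igf1 and for Nr5a2. For Hand2, Heatr1 and Ier5 it was 1 of 3, and for Pdgfrb and Pfkfb3 1 of 2. With all probes tested together as deposited, the only probes of Ifng, Atf3, Klf2, Ltb and Cd2 were not called. Intensities were raised to a floor at the 20th percentile of the table (3.04) and taken to log2. One limma 3.58.1 model (R 4.3.3, lmFit and eBayes) of 4 group means over 12 arrays gave the contrast of 3 h and 1 h, as deposited and after quantile normalization, with Benjamini-Hochberg adjustment at 0.05. Log2 differences in the text are after quantile normalization, with the standard error after ±, signals are as deposited and means of signals are geometric. Where all arrays of a group were at the floor, the fold is a lower bound for the values as deposited, from the mean of the other group over the floor. The script was checked on simulated data. Levels of different probes were not compared, and the number of arrays limits the precision.

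Named genes were the 15 largest rises and falls called both ways with no overlap between the groups, and up to 3 of each direction from each of 52 gene lists (1059 measured genes), 141 in all. Those outside the rule were named because they completed a count or a family, after their values were seen. The comparison, the lists and the members were chosen with earlier results of these data known. Items withheld from this work, a promoter motif among them, are not reported here. Same-numbered replicates did not pair: the correlations of their deviations were 0.03, 0.02 and 0.00, against -0.05 to 0.03 for other pairs, and every array correlated best with an array of its own group. P-values measure the spread between these arrays. Promoters came from RefSeq (GRCm38.p6). Alternatives were other scalings, a pseudocount of 1 without a floor, brighter genes only, an intensity trend, only the 6 arrays, all probes, unadjusted p, a 2-fold minimum, a replicate block and each array left out. Sets of arrays by the bioC control were added after the data were seen.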

Additional observations from a re-analysis of the deposited data

How the results depend on the processing

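As deposited, the 561 genes higher at 3 h became 1005 after quantile normalization, 1140 scaled to the 75th percentile, 1729 with equal array medians, 942 as probes and 341 with a 2-fold minimum, and 422 to 575 with single arrays left out. The 3620 lower genes became 979, 900, 708, 5782 and 1030 under the same choices, 2290 with only the 6 arrays of 3 h and 1 h, and 5844 by unadjusted p. With single arrays left out they were 1872 to 3784, with 1872 without 1 h replicate 1 and 2070 without 3 h replicate 3. After quantile normalization the 1005 higher genes became 1779 as probes and 512 with a 2-fold minimum (755 to 1035 with single arrays left out). The 979 lower ones became 1556 and 392, 646 with only the 6 arrays, and 617 to 951 with single arrays left out, with 648, 630 and 617 without 1 h replicates 1, 2 and 3. The median difference of -0.31 became -0.027 after quantile normalization, 0.0 scaled to the 75th percentile and 0.12 with equal medians, and -0.36 to -0.25 with single arrays left out. These scalings set the centre of the arrays by construction.

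With the replicate number as a block, 560 genes were higher and 3676 lower as deposited, and 913 and 842 after quantile normalization. The block moved none of these 4 counts by more than 1.5 times, and the arrays share only a number. Among the lists, the counts that it moved by more than 1.5 times were 5 glucocorticoid-induced falls of 8, 3 phosphatase and decay falls of 5, 3 stellate falls of 5, 3 neutrophil rises of 5, 1 immediate-early rise of 3, and the lost single calls of Cd2, Igf1 and Acot12; 1 more NK cell rise and 1 more complement rise were called, as were 1 complement fall, 1 unfolded protein response rise and 1 cell death fall in lists with none before. With the bioC sets as a block, chosen after the data were seen, the counts were 257 and 751 as deposited and 481 and 344 after quantile normalization, and within the dim set 229 and 672, and 464 and 336. Only the 3 h group spans both sets, so these fits rest on 3 h replicate 1 against the 1 h arrays. The 141 named genes were chosen with no overlap between the groups both ways, so leaving out arrays could not reverse their direction. They were followed through the alternatives to the values as deposited, other than all probes, unadjusted p and the 2-fold minimum. None changed direction there, 65 kept their call under every one, and 73 kept it with the bioC block.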

Other observations

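Calls in other gene groups are to be read against 3.08% higher and 5.38% lower of all genes. Of 25 cell death and growth arrest genes 6 were higher (24.0%) and none lower, 3 without 3 h replicate 3 and 1 with 3 h replicate 1 alone. Mlkl, the executor of necroptosis, read 114, 162 and 134 at 3 h, against 45.5, 28.9 and 41.9 at 1 h (2.14 ± 0.56), and Birc2, an inhibitor of apoptosis, read 841, 782 and 883 at 3 h, against 300, 264 and 215 at 1 h (1.96 ± 0.11). Of 40 nucleolar and ribosome biogenesis genes 5 were higher (Nop58, Heatr1, Tsr1, Rrp1b and Gnl3; 12.5%), 3 without 1 h replicate 3 and 2 without 3 h replicate 2 or 3. Heatr1 read 475, 636 and 543 at 3 h, against 240, 240 and 218 at 1 h (1.51 ± 0.11). Of 24 coagulation genes F3, which is tissue factor, and Plaur, the urokinase receptor, were higher (8.33%), and 1 of them was without 1 h replicate 2 or 3 h replicate 3 and none with 3 h replicate 1 alone. F3 read 69.8, 139 and 132 at 3 h, against 27.8, 23.1 and 14.8 at 1 h (2.68 ± 0.40).

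Of 21 genes of iron metabolism 3 were higher (14.3%) and 2 lower (9.52%). Slc40a1, the iron exporter ferroportin, read 525, 420 and 379 at 3 h, against 1683, 1735 and 1498 at 1 h (-1.61 ± 0.14), and Hjv, the hepcidin regulator hemojuvelin, read 111, 94.3 and 97.1 at 3 h, against 507, 435 and 328 at 1 h (-1.70 ± 0.27). The importers Slc11a2 and Slc39a14 were higher by 1.55 ± 0.13 and 0.93 ± 0.12, and hepcidin itself, Hamp, differed by 0.50 and was not called. Of 24 cell junction genes 6 were lower (25%), the claudins Cldn1, Cldn3 and Cldn5 among them, and 2 or 3 were lower without any single 1 h array or without 3 h replicate 2 or 3. Cldn3 read 246, 233 and 213 at 3 h, against 733, 621 and 531 at 1 h (-1.14 ± 0.12).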
